A study of Mus musculus with 2 samples.

Results

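Naive-type CD4 T cells were the 742 barcodes, of 12514 in a single-cell RNA matrix of tumour-infiltrating leukocytes, that carried transcripts of the T cell receptor complex, of Cd4 and of genes of the naive state. A barcode was a member when at most 10% of its unique molecular identifiers (UMIs, which count captured transcripts) were mitochondrial, when Cd3d, Cd3e and Cd3g summed to at least 2 UMIs, when Cd4 had at least 1, and when Lef1, Tcf7 and Ccr7 summed to at least 2. It also had no UMI of Cd8a, Cd8b1, Foxp3 or the B cell gene Cd79a, fewer than 3 of the cycling genes Mki67 and Top2a, and fewer than 20 of the complement genes C1qa, C1qb and C1qc that mark macrophages. Library 1 held 725 members among 5320 barcodes, 13.6% (95% Clopper-Pearson interval 12.7% to 14.6%). Library 2 held 17 among 7194 barcodes, 0.236% (0.138% to 0.378%).

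Naive CD4 T cells are mature helper-lineage cells that have left the thymus and not yet met their antigen. They circulate between blood and lymphoid organs, entering lymph nodes with the help of the chemokine receptor Ccr7 and leaving through the lipid receptor S1pr1, while interleukin 7 and weak contacts with self-peptides keep them alive. The transcription factors Lef1, Tcf7, Klf2 and Foxo1 hold this resting program, which gives way to effector or regulatory programs once a cell is activated, as many T cells in tumours are.

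The cells came from subcutaneous tumours in C57BL/6 mice, hosts with their own immune system. One group of tumours grew from miR-21 KO cells of the mouse oral cancer line MTC-Q1, and the other from MTC-Q1 WT cells. Both groups received cisplatin, a DNA-damaging drug, at 5 mg/kg after 2 weeks of growth, and leukocytes were isolated 72 h later by dissociation, removal of dead cells and CD45 microbeads. There was 1 library per group and no untreated tumour, and no label gives the ages of the mice or how many were used per library. No source says which library number belongs to the KO or the WT tumours, so no direction between genotypes is given. Without replicate libraries no difference was tested, and the 95% intervals below cover counting error only, since molecules of 1 cell are not independent samples.

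The members of library 2 went against the name. Effector and myeloid genes were higher in them and naive-state genes lower than in members of library 1. The calcium-binding protein gene S100a4, a marker of activated and memory T cells, had 128 UMIs per 1000000 UMIs of the summed cells (CPM) in members of library 1 and 1780 CPM in those of library 2. Gzmb, which encodes the cytotoxic protease granzyme B, had 5.46 CPM in library 1 members and 1284 CPM in library 2 members. The chromatin organizer Satb1 had 1001 CPM in library 1 members and 145 CPM in library 2 members, and S1pr1 had 464 CPM in library 1 members and 42.2 CPM in library 2 members. Per cell, 24 activation and memory genes summed to a median of 1622 CPM in library 1, with 95% of members under 5709 CPM, whereas the lowest of the 17 cells of library 2 stood at 8606 CPM. Markers of macrophages and monocytes summed to 400 CPM in library 1 members and 4020 CPM in library 2 members, with none of the 11 genes at 0 in library 1. Of the UMIs in library 2 members, 464 of 858 lay in 1 cell, and the sum was 2287 CPM without it. Markers of NK cells summed to 65.3 CPM in library 1 members and 2497 CPM in library 2 members. There 279 of 533 UMIs lay in 1 cell, and the sum was 1474 CPM without it. The erythroid markers were at 0 in both libraries.

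Cells carrying transcripts of another lineage were counted over 62 marker genes of NK, B, myeloid, stromal, epithelial and erythroid cells. At least 10 such UMIs were found in 26 of the 725 members of library 1 in 9 of the 17 members of library 2 and in 171 of the 1480 naive-type CD8 cells of library 1. The markers include NK cell genes such as Klrd1, Gzma and Eomes, which CD8 T cells can also express. Ratios of these genes without such cells are therefore partly set by the choice of cells. Members had a median of 2 such UMIs in library 1, where 69 had none, and 24 in library 2. The comparisons between classes below therefore use library 1 alone, and library 2 is named wherever its values are given. Named gene ratios that moved by over 1.5-fold when cells with at least 10 such UMIs were left out of both classes are also given without those cells. Members of library 1 had a median of 5673 UMIs (4169 to 34682) and 1543 detected genes, and summed to 4762988 UMIs, while the 17 members of library 2 had a median of 11572 UMIs. Across all barcodes the median was 7169 UMIs in library 1 and 15248 in library 2. The libraries shared 8 barcode sequences, carried by 2 of the members in library 1, and 7 members of library 1 were among the 5% of barcodes that Scrublet scored most like doublets.

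The values that chose the members describe them and support nothing further. In library 1, Cd3e had a UMI in 649 members (89.5%), Lef1 in 654 (90.2%), Tcf7 in 639 (88.1%) and Ccr7 in 607 (83.7%). All of Lef1, Tcf7 and Ccr7 were detected in 483 members (66.6%). The weakest evidence was for the coreceptor itself: Cd4 rested on exactly 1 UMI in 413 members (57.0%) and reached at most 8. The sum of Lef1, Tcf7 and Ccr7 had a median of 9, with 17 members at the limit of 2 and 39 at 3, and 11 further CD4 cells lay just outside with 1. In library 2 the same sum had a median of 2 and 9 of 17 members sat at the limit.

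Among the 2932 naive-type T cells of library 1, chosen by the same limits whatever their coreceptor, fewer had Cd4 UMIs alone than Cd8a or Cd8b1 UMIs alone. Members made up 24.7% (23.2% to 26.3%), cells with Cd8a or Cd8b1 and no Cd4 UMI 50.5%, cells with no coreceptor UMI 18.4% and cells with both 6.38%. There were 0.490 members per naive-type CD8 cell (0.448 to 0.536) in library 1 and 0.118 (0.0669 to 0.196) in library 2, where 17 members stood against 144 CD8 cells. The 187 cells with both coreceptors had a median of 12238 UMIs, and 13.9% of them were among the 5% with the highest doublet scores. These are shares by detected coreceptor, and a cell whose Cd4 molecules were missed is not among the members.

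The contrast between naive CD4 and naive CD8 cells included a neighbouring gene pair with opposite ratios, Ly6c1 and Ly6c2, whose start-site regions are shown for that reason. Both encode Ly6C, a small surface protein anchored in the membrane by lipid, and in the mouse naive CD4 T cells low in Ly6C are known to be the more self-reactive ones. Ly6c1 lies at chr15:75044018-75048830 and Ly6c2 at chr15:75108158-75111970, both on the minus strand of GRCm38. The 300 bases around each start site, from 250 bases before it to 50 after it, are given 5′ to 3′ on the minus strand from RefSeq, build GRCm38.p6, for Ly6c1 at chr15:75048788-75049087 and for Ly6c2 at chr15:75111922-75112221. Capitals mark the core letters bound by RUNX factors, which repress Cd4 in the CD8 lineage: TGTGGT, or ACCACA on the other strand.
Ly6c1: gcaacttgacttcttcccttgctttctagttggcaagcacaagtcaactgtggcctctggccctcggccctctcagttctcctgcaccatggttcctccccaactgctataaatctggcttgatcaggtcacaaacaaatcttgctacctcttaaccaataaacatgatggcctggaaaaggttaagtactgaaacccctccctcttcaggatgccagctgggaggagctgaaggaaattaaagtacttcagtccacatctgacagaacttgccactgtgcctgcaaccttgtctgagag
Ly6c2: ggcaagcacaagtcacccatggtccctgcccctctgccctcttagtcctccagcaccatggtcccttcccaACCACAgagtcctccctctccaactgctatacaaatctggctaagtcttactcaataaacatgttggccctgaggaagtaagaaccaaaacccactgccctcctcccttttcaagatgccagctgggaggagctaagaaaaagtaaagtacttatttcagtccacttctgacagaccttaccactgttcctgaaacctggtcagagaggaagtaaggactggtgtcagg
The Ly6c2 window held 1 match and the Ly6c1 window none, and 5506 of 32851 mouse promoter windows of this length (16.8%) held at least 1. The windows matched at 78.2% of 266 aligned bases. The transcripts were 97.6% identical over 822 aligned bases and 98.0% identical over their last 300 bases, where 3′ reads fall, so UMIs of Ly6c1 and Ly6c2 could be exchanged and both counts are uncertain.

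Members and naive-type CD8 cells lay within 2-fold of each other at most genes, and differed by more at a small set that includes helper and cytotoxic genes. Among 7480 genes with at least 100 UMIs over both classes, rule genes left out, 106 (1.42%) were at least 2-fold higher in members and 123 (1.64%) at least 2-fold lower. Ly6c1 had the highest ratio, with 171 CPM in the 725 members and 10.3 CPM in the 1480 CD8 cells, 16.6-fold, or a log2 ratio of 4.05 (3.78 to 4.34). Next stood St8sia6, a sialyltransferase gene, with 55.8 CPM in members and 3.61 CPM in CD8 cells (log2 3.95, 3.48 to 4.45). Cd40lg, the helper-cell ligand that licenses B cells and dendritic cells, had 66.8 CPM in members and 4.70 CPM in CD8 cells (log2 3.83, 3.42 to 4.27). Without the cells of another lineage 73 genes were higher and 109 lower.

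Other leading ratios were of genes with varied roles. The costimulatory receptor OX40 gene Tnfrsf4 had 62.1 CPM in members and 9.48 CPM in CD8 cells (log2 2.71, 2.40 to 3.04). Tbc1d4, which controls vesicle traffic of a glucose transporter, had 94.3 CPM in members and 20.5 CPM in CD8 cells (log2 2.20, 1.98 to 2.43). Izumo1r, the folate receptor 4 gene high in regulatory and self-reactive helper cells, had 64.2 CPM in members and 16.5 CPM in CD8 cells (log2 1.96, 1.70 to 2.23). The transcription factor Maf had 78.9 CPM in members and 21.0 CPM in CD8 cells (log2 1.91, 1.68 to 2.15). Tmem64 had 136 CPM in members and 33.4 CPM in CD8 cells (log2 2.03, 1.85 to 2.21). Of 7 helper cytokine and lineage regulator genes measured, none was at least 2-fold higher in members and 3 were lower (median log2 0.08). Those were the chemokine gene Ccl5 at −1.04 and the granzyme genes Gzma at −2.98 and Gzmb at −2.83. With the cells of another lineage left out, 1 of 6 measured genes of this list was higher and 2 were lower (median 0.46). Without the cells of another lineage, chosen in part by their Gzma UMIs, Gzma stood at −0.72. The interval for Gzmb was then −5.64 to −2.75. A pair of genes in the leading set rested on single cells. Bgn had a log2 ratio of 2.31 but 91.3% of its member UMIs were in 1 cell, and it stood at 0.59 without the top cell of each class. Cxcl10, an interferon-induced chemokine, had 2.18, with 71.9% of its member UMIs in 1 cell, and stood at −0.60 without the cells of another lineage.

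Genes lower in members included those of cytotoxic granules, chemokines and killer receptors. Nkg7, a granule membrane protein, had 30.7 CPM in members and 427 CPM in CD8 cells, 13.9-fold lower. Bend4 had 1.47 CPM in members and 55.9 CPM in CD8 cells (log2 −5.25, −6.57 to −4.20), Lcn4 had a log2 ratio of −4.11, and Fam241a had 31.1 CPM in members and 249 CPM in CD8 cells. Klrd1, which encodes the killer receptor subunit CD94, had 43.9 CPM in members and 206 CPM in CD8 cells (log2 −2.23). The granule protease inhibitor Cst7 and cathepsin gene Ctsw had log2 ratios of −2.50 and −2.52, and the chemokine genes Xcl1 and Ccl4 had −2.54 and −2.24. Both chemokine genes rested on a minority of cells. Of the 1480 CD8 cells, 149 had a UMI of Xcl1 and 105 of Ccl4, whereas 1195 had one of Nkg7. In members, Xcl1 was found in 22 cells, with 41.7% of its UMIs in 1, and Ccl4 in 21, with 33.3% in 1. Without the top cell of each class Xcl1 stood at −3.22, and without the cells of another lineage Cst7 stood at −3.11. Itgae, the integrin that binds E-cadherin, had 1.89 CPM in members and 37.2 CPM in CD8 cells (log2 −4.30).

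Ly6c2 ran opposite to Ly6c1. It had 122 CPM in members and 699 CPM in CD8 cells (log2 −2.52, −2.64 to −2.40), and −3.81 once cells with UMIs of another lineage were left out, since 68.1% of its member UMIs lay in the 26 such cells. With every cell thinned to 4000 UMIs, Ly6c1 was detected in 39.3% of members (35.7% to 43.0%), 2.64% of CD8 cells and 1.84% of B cells, the class taken to show stray RNA. Ly6c2 was detected in 8.69% of members, 48.7% of CD8 cells and 15.4% of B cells, so its share in members lay below that of the B cells and is not read as expression. For Ly6c2 the B cells are not a clean background. Markers of macrophages and monocytes, a list that holds Ly6c2, summed to 3425 CPM in B cells and 400 CPM in members. Whether such transcripts raised the B cell share was not tested. Median depths before thinning were 5673 UMIs in members, 6875 in CD8 cells and 5174 in the 434 B cells, and no member or other cell was too shallow to thin. Without thinning, Ly6c1 was detected in 48.1% of members and Ly6c2 in 11.4%.

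Regulators of the choice between the CD4 and CD8 lineages differed in both directions. Of 12 lineage regulators compared, 2 were at least 2-fold higher in members and 2 lower, with a median log2 ratio of 0.27 beside 0.01 over all genes. Gata3, needed for CD4 lineage choice in the mouse, had 43.7 CPM in members and 19.8 CPM in CD8 cells (log2 1.14). Runx1 had 94.5 CPM in members and 41.7 CPM in CD8 cells (log2 1.18), while Runx3, which silences Cd4 in CD8 cells, had 80.6 CPM in members and 169 CPM in CD8 cells (log2 −1.07). Eomes, a T-box factor of memory CD8 and NK cells, had 0.630 CPM in members and 33.0 CPM in CD8 cells (log2 −5.71). Its log2 ratio was −4.76 without the cells of another lineage, which were chosen in part by their Eomes UMIs. Zbtb7b, the ThPOK factor that fixes the CD4 lineage, had 12.8 CPM in members and 1.17 CPM in CD8 cells. It was seen in only 6.07% of members at 4000 UMIs beside 4.15% of B cells, with overlapping intervals. The B cells are not a clean background here either, since macrophage and monocyte markers summed to 3425 CPM in them and 400 CPM in members. How much of the B cell share was stray RNA was not tested.

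Genes of the naive state itself were at similar levels in both lineages apart from a few. Of 19 such genes outside the rule, 3 were at least 2-fold higher in members and none lower (median log2 0.33). Besides Ly6c1 these were Igfbp4, which encodes an insulin-like growth factor binding protein, with 215 CPM in members and 79.6 CPM in CD8 cells, and the pseudokinase gene Trib2, with 107 CPM in members and 32.9 CPM in CD8 cells (log2 1.71). Klf2 had 1573 CPM in members and 1647 CPM in CD8 cells, and the interleukin 7 receptor gene Il7r had 510 CPM in members and 414 CPM in CD8 cells. No gene passed 2-fold among 20 of the T cell receptor complex (median 0.15), 20 of quiescence (0.19), 18 of survival (0.14) or 25 of the interferon response (0.03). Within those lists Cd5, a brake on receptor signalling whose level follows self-reactivity, had 70.5 CPM in members and 42.6 CPM in CD8 cells (log2 0.73, 0.52 to 0.93), and the costimulatory receptor Cd28 had 372 CPM in members and 271 CPM in CD8 cells. Nr4a1, an immediate target of receptor signals, had 172 CPM in members and 104 CPM in CD8 cells (log2 0.72, 0.59 to 0.85).

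Genes usually read as signs of activation or of regulatory cells differed in both directions. Of 24 activation and memory genes, 4 were at least 2-fold higher in members (Cd40lg, Tnfrsf4, Maf and the interleukin 2 receptor gene Il2ra) and 3 lower (Il2rb, Cxcr6 and Itgae), with a median log2 ratio of 0.02. Without the cells of another lineage 3 of 20 were higher and 2 lower. Of 10 regulatory T cell genes, 5 were higher and 2 lower (median 0.78), although Foxp3 was at 0 in every member by rule. Without the cells of another lineage 3 of 7 were higher and 2 lower. Among them the inhibitory receptor Ctla4 had 60.5 CPM in members and 29.9 CPM in CD8 cells, and Il2ra had 15.5 CPM in members and 6.46 CPM in CD8 cells. The Helios gene Ikzf2 ran the other way, with 36.1 CPM in members and 75.6 CPM in CD8 cells. These genes rested on a minority of members: Ctla4 had a UMI in 113 of 725, Ikzf2 in 50 and Il2ra in 33, and 582 members had none of them, while 15 had at least 10 UMIs over them. Of 15 genes of self-reactivity and tonic signalling, 3 were higher (Ly6c1, Izumo1r and Cd200) and 1 lower (Ly6c2), with a median of 0.63, and without the cells of another lineage 4 of 13 were higher and 1 lower. All 5 NK cell markers measured were lower (median −2.23), and macrophage and monocyte markers summed to 400 CPM in members and 957 CPM in CD8 cells. The part of these other-lineage transcripts in the contrast was not tested beyond the values without those cells.

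Naive-type cells in which no coreceptor was detected lay nearer to the members than to CD8 cells at several genes that differed between those classes. These 540 cells of library 1 had a median of 5478 UMIs. At 4000 UMIs per cell, Cd40lg was detected in 20.7% of members (17.8% to 23.8%), 18.9% of cells with no coreceptor (15.7% to 22.4%), 1.01% of CD8 cells and none of 434 B cells (upper limit 0.846%). Igfbp4 was detected in 42.8% of members, 42.4% of cells with no coreceptor, 22.0% of CD8 cells and 3.46% of B cells. Ly6c1 differed more, at 39.3% of members and 30.7% of cells with no coreceptor (26.9% to 34.8%). Klrd1 was detected in 10.9% of members, 16.1% of cells with no coreceptor, 48.8% of CD8 cells and 2.07% of B cells, and Itgae in 0.552% of members, 0.556% of cells with no coreceptor, 13.7% of CD8 cells and 0.230% of B cells. How many of the 540 are CD4 cells whose Cd4 molecules were missed was not estimated.

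**Figure D1:**
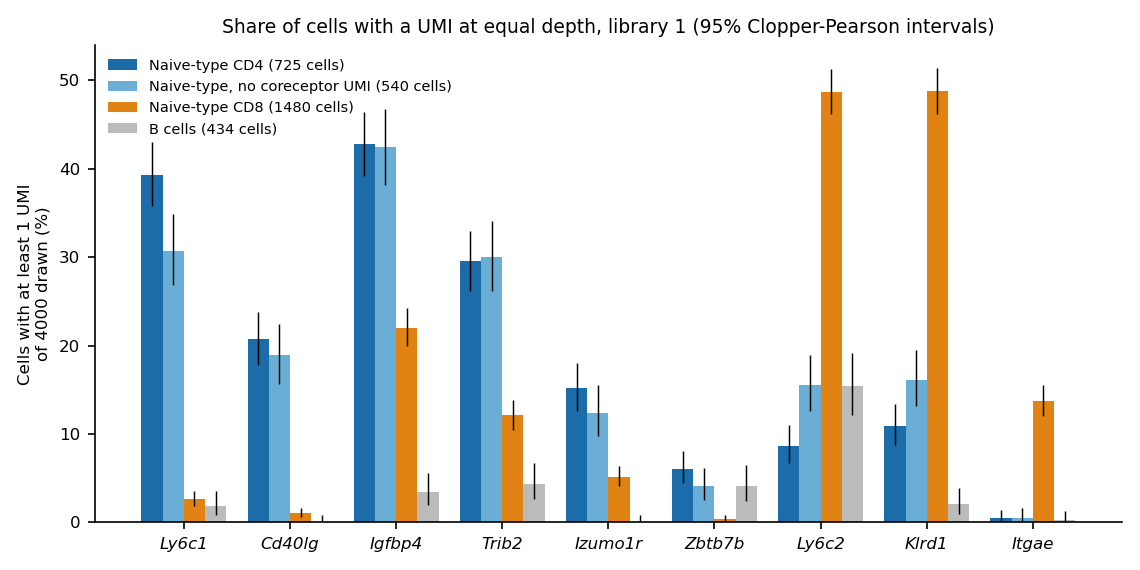
Bars show the percentage of cells with at least 1 UMI of each gene after thinning every cell to 4000 UMIs, for naive-type CD4 T cells, naive-type T cells with no coreceptor UMI, naive-type CD8 T cells and B cells of library 1, with 95% Clopper-Pearson intervals. Cells with no coreceptor lie near the CD4 bars at Cd40lg (18.9% against 20.7%) and far from the CD8 bars at Itgae (0.556% against 13.7%).

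Against CD4 cells of the same library without the naive genes, the members were low in activation, regulatory and interferon genes and high in genes of recirculation. That class held only 18 cells with no UMI of Lef1, Tcf7 or Ccr7, summing to 115561 UMIs, so ratios to it are coarse. Of 4195 genes compared, 439 (10.5%) were at least 2-fold higher in members and 782 (18.6%) lower, and 50 (1.19%) and 345 (8.22%) also had an interval that excluded 1.5-fold. The split depends on scaling: ribosomal protein genes took 40.8% of UMIs in members and 24.1% in the 18 cells, and with totals taken without ribosomal and mitochondrial genes and Gm42418 853 genes were higher and 339 lower. The median log2 ratio over all genes was −0.24 by totals and 0.20 without those genes.

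Naive-state genes were higher in members under each scaling. The classes were split on Lef1, Tcf7 and Ccr7, with at least 2 UMIs in members and none in the 18 cells. Ratios of other genes that rise or fall with these are therefore partly set by the choice of cells and are given as a description. Of 19 naive-state genes outside the rule, 14 were at least 2-fold higher in members and none lower, 8 of them by the stricter interval, with a median log2 ratio of 1.49. Without ribosomal and mitochondrial genes and Gm42418 in the totals, 17 were higher (median 1.93). S1pr1 had 464 CPM in members and 77.9 CPM in the 18 cells (log2 2.58, 1.65 to 3.71). Klf2, which drives S1pr1, had 1573 CPM in members and 337 CPM in the 18 cells (log2 2.22, 1.77 to 2.71), and Satb1 had 1001 CPM in members and 190 CPM in the 18 cells (log2 2.39, 1.79 to 3.07). Igfbp4 had 215 CPM in members and no UMI in the 18 cells. Against a floor of 3 counts over that class it was 8.30-fold higher (log2 3.05, with a lower limit of 2.75). Dapl1, known from resting T cells in the mouse, had 261 CPM in members and 8.65 CPM in the 18 cells, a single UMI, so its log2 ratio of 4.91 had an interval of 2.43 to 10.22. Il7r stood apart from the list, with 510 CPM in members and 511 CPM in the 18 cells. The immunity-associated GTPase gene Gimap6 had 815 CPM in members and 190 CPM in the 18 cells (log2 2.10).

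Effector and regulatory genes lay on the other side. Of 19 activation and memory genes, 17 were at least 2-fold lower in members and none higher, 16 by the stricter interval (median −2.53), and 6 of 7 regulatory genes were lower (median −3.08). Without ribosomal and mitochondrial genes and Gm42418 in the totals, 16 activation and memory genes were lower and 1 higher (median −2.09). Tnfrsf4 had 62.1 CPM in members and 511 CPM in the 18 cells. The costimulatory receptor Icos had 112 CPM in members and 606 CPM in the 18 cells, and Ctla4 had 60.5 CPM in members and 493 CPM in the 18 cells. Areg, a repair growth factor, had the lowest ratio (log2 −7.44), but 53.1% of its UMIs in the 18 cells were in 1 cell. The transcription factor Bhlhe40 had 44.1 CPM in members and 900 CPM in the 18 cells (log2 −4.35). Il2ra had 15.5 CPM in members and 294 CPM in the 18 cells (log2 −4.24), and the cytokine gene Ifng had 16.6 CPM in members and 225 CPM in the 18 cells (log2 −3.76). Cd5 was also lower, with 70.5 CPM in members and 190 CPM in the 18 cells (log2 −1.43, −2.05 to −0.74), the reverse of its contrast with CD8 cells. Of 23 interferon-response genes 20 were lower and none higher by totals (median −1.49), and 13 were lower without ribosomal and mitochondrial genes and Gm42418 in the totals. Isg15, a ubiquitin-like interferon target, had 178 CPM in members and 813 CPM in the 18 cells (log2 −2.19, −2.50 to −1.87), and a log2 ratio of −3.27 without the cells of another lineage. Of the 18 cells, 1 had at least 10 UMIs of another lineage.

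**Figure D2:**
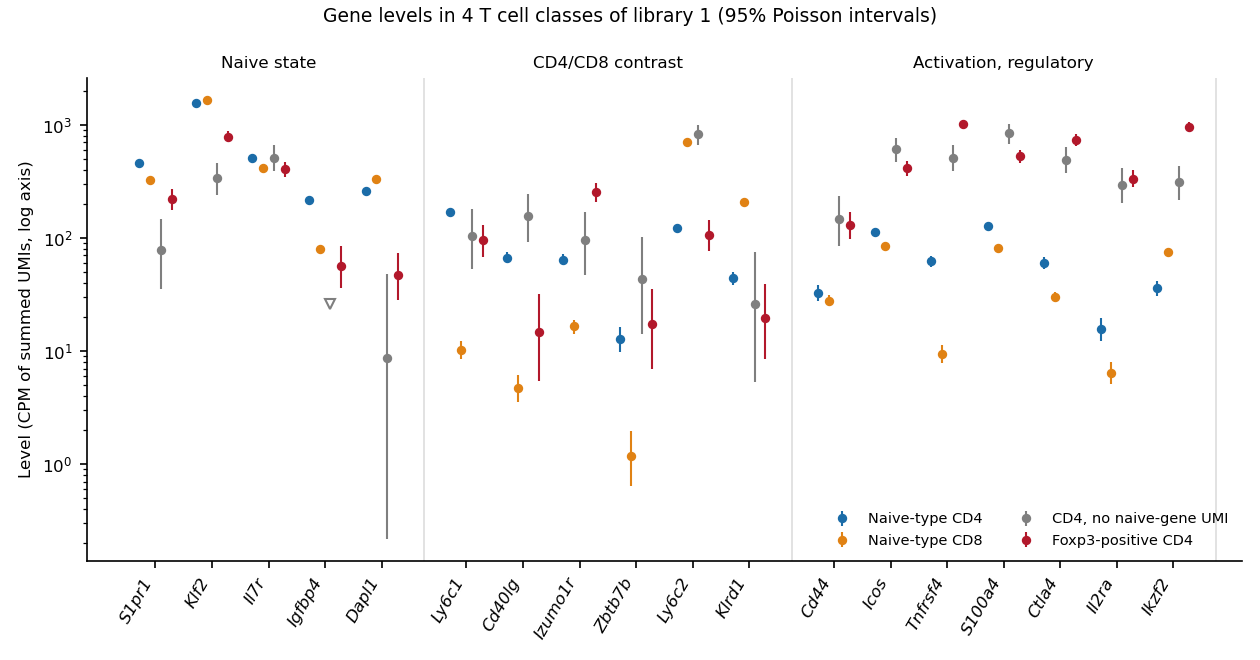
Points give the level of each gene in CPM of summed UMIs, on a log axis, in 4 T cell classes of library 1, with 95% Poisson intervals; an open triangle marks the floor of 3 counts for a class with no UMI. Naive-type CD4 T cells stand above the CD4 cells with no naive-gene UMI at S1pr1 (464 against 77.9 CPM) and below both other CD4 classes at Tnfrsf4 (62.1 CPM) and Icos (112 CPM).

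The members were low in regulatory T cell genes, and high in fewer naive-state genes, when set against the 45 Foxp3-positive CD4 cells of library 1, which had a median of 7494 UMIs. Of 4385 genes compared, 153 (3.49%) were at least 2-fold higher in members and 298 (6.8%) lower by totals, against 236 higher and 177 lower without ribosomal and mitochondrial genes and Gm42418. By the stricter interval 38 (0.867%) were higher and 192 (4.38%) lower. All 9 regulatory T cell genes measured were lower in members (median log2 −3.80 beside −0.17 over all genes). Ikzf2 had 36.1 CPM in members and 964 CPM in Foxp3-positive cells (log2 −4.74), Ctla4 had 60.5 CPM in members and 737 CPM in Foxp3-positive cells (log2 −3.61), and Tnfrsf4 had 62.1 CPM in members and 1011 CPM in Foxp3-positive cells (log2 −4.02). Of 20 activation and memory genes 14 were lower and 1 higher (median −1.85), the one higher being Cd40lg with 66.8 CPM in members and 14.8 CPM in Foxp3-positive cells.

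Of 19 naive-state genes outside the rule, 7 were at least 2-fold higher in members than in Foxp3-positive cells and none lower (median 0.83). Members needed at least 2 UMIs of Lef1, Tcf7 and Ccr7, whereas the Foxp3-positive class had no such condition. Ratios of genes that go with Lef1, Tcf7 and Ccr7 are therefore partly set by the choice of cells. S1pr1 had 464 CPM in members and 222 CPM in Foxp3-positive cells, Dapl1 had 261 CPM in members and 46.8 CPM in Foxp3-positive cells, and Igfbp4 had 215 CPM in members and 56.7 CPM in Foxp3-positive cells. Trib2 had 107 CPM in members and 108 CPM in Foxp3-positive cells. Without ribosomal and mitochondrial genes and Gm42418 in the totals, 10 naive-state genes were higher (median 1.01). Interferon-response genes were 4 lower and none higher of 23 (median −0.64), and 2 were lower without ribosomal and mitochondrial genes and Gm42418 in the totals (median −0.46) and under median-of-ratios scaling (median −0.47). Without the cells of another lineage 11 of 21 were lower (median −1.10). Bgn had the highest log2 ratio, 4.72, and stood at 1.10 without the cells of another lineage and at −0.42 without the top cell of each class. Gzmb had the lowest, −5.41, and stood at −7.58 without the cells of another lineage. Its UMIs lay in 6 of the 45 Foxp3-positive cells, with 34.0% in 1 cell, and in 8 members. At least 10 UMIs of another lineage were found in 4 of the 45 Foxp3-positive cells.

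Every tumour had received cisplatin and no untreated cells were measured, so the p53 target genes that DNA damage induces can be given as levels only. They summed to a median of 919 CPM per member of library 1 (0 to 3775 CPM), and to 1005 CPM over members and 868 CPM over naive-type CD8 cells. None of 16 passed 2-fold between members and CD8 cells (median log2 0.13). The cell-cycle inhibitor Cdkn1a had 44.7 CPM in members, 34.4 CPM in CD8 cells, 69.0 CPM in Foxp3-positive cells and 528 CPM in the 18 CD4 cells without naive genes. Its log2 ratio to those 18 cells was −3.56, and −4.32 without the cells of another lineage. The p53 regulator Mdm2 had 30.0 CPM in members and 30.9 CPM in CD8 cells. Bbc3, which encodes the death inducer PUMA, had 49.1 CPM in members and 35.9 CPM in CD8 cells (log2 0.45, 0.22 to 0.69). Immediate early and heat shock genes, which dissociation can also induce, summed to a median of 9084 CPM per member, and none of 19 passed 2-fold against CD8 cells.

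The genes that varied most among members of library 1 included several that rested on few cells. At 4000 UMIs per cell the ratio of variance to mean, which is 1 under random sampling, had a median of 1.09 over 5388 genes. A gene of low mean lies near 1 unless several of its UMIs fall in the same cell. Of 5280 genes left without ribosomal, mitochondrial, sex-linked check, immunoglobulin and receptor variable genes, 265 exceeded 1.5. Genes used by the rule were kept in that count. The leading gene, the cytokine Il22, had a ratio of 74.0, with 99.6% of its 238 UMIs in 1 cell. The opioid peptide precursor Penk was found in 6 members with 73.0% of its UMIs in 1. Antigen presentation and myeloid genes among the leading 20 lay mostly in the 26 members with transcripts of another lineage, which held 73.6% of the UMIs of the invariant chain Cd74, 80.8% of the lysozyme gene Lyz2 and 73.4% of Cst3. Ifi27l2a, an interferon target, was instead detected in 674 members, with 16.4% of its UMIs in those 26 cells. The heat shock gene Hspa1b was found in 86 members, with 6.17% in those cells. With 2000 UMIs per cell, 18 of the leading 20 genes were shared.

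**Figure D3:**
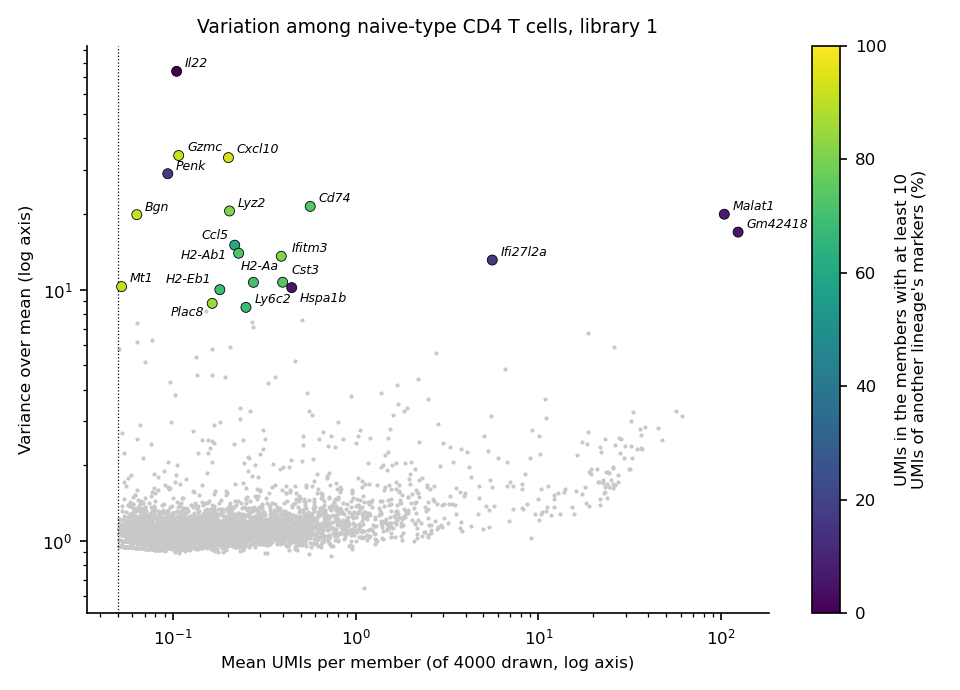
Each point is a gene in the 725 naive-type CD4 T cells of library 1, with mean UMIs per cell after thinning to 4000 UMIs on the horizontal log axis and the ratio of variance to mean on the vertical log axis; the dotted line is the minimum mean of 0.05. The 20 leading genes are coloured by the percentage of their UMIs found in the 26 members with another lineage's markers, which lies between 0% at Il22 and 93.3% at Cxcl10.

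Without the 26 cells of another lineage, 336 members had a Ly6c1 UMI and 363 had none, with a median depth of 5740 UMIs in members with Ly6c1 and 5476 UMIs in those without. Of 3796 genes, 1 (0.0263%) was at least 2-fold higher in members with Ly6c1, the TGF-beta family decoy receptor gene Bambi at 45.3 CPM in members with Ly6c1 and 16.5 CPM in those without, and 40 (1.05%) were lower. Of 17 activation and memory genes 8 were lower and none higher (median log2 −0.90 beside −0.09 over all genes). Of 6 regulatory T cell genes 4 were lower and none higher (median −1.51), and no gene of 18 of the naive state passed 2-fold (median 0.08). Some of these genes rested on few cells, with a UMI of Tnfrsf4 in 88 and of Ikzf2 in 50 of the 725 members. Tnfrsf4 had 21.5 CPM in members with Ly6c1 and 87.1 CPM in those without (log2 −2.02, −2.51 to −1.55), and Ctla4 had 27.5 CPM in members with Ly6c1 and 87.6 CPM in those without (log2 −1.67, −2.12 to −1.25). The adhesion and memory genes S100a4 and Itgb1 had log2 ratios of −2.11 and −2.06, the ligand gene Tnfsf8 had −2.67 and Bhlhe40 had −3.29. Maf had 38.5 CPM in members with Ly6c1 and 108 CPM in those without (log2 −1.49), and Ikzf2 had a log2 ratio of −1.83.

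Of 9 genes of self-reactivity and tonic signalling measured in this split, 1 (Ly6c2) was at least 2-fold lower in members with Ly6c1 and none higher, with a median log2 ratio of −0.15 beside −0.09 over all genes. Izumo1r had 41.2 CPM in members with Ly6c1 and 81.1 CPM in those without (log2 −0.98, −1.36 to −0.60), Icos had 78.3 CPM in members with Ly6c1 and 146 CPM in those without (log2 −0.90, −1.17 to −0.62), and Cd5 had 57.2 CPM in members with Ly6c1 and 88.9 CPM in those without (log2 −0.64, −0.97 to −0.30). The receptor-signal target Nr4a1 had 167 CPM in members with Ly6c1 and 172 CPM in those without (log2 −0.05, −0.26 to 0.16). The survival receptor gene Il7r was close, at 546 CPM in members with Ly6c1 and 515 CPM in those without. With all 725 members kept, 349 with Ly6c1 and 376 without, 16 of 4098 genes (0.39%) were higher and 36 (0.878%) lower. Ly6c2 then changed sign: its log2 ratio was 1.51 over all members and −1.52 without the 26 cells.

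**Figure D4:**
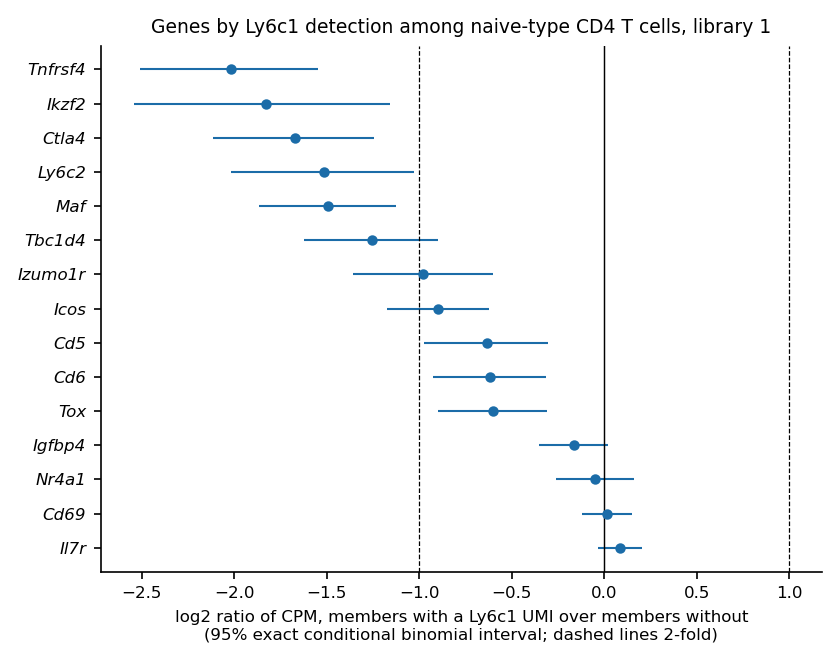
Points give the log2 ratio of CPM in the 336 naive-type CD4 T cells with a Ly6c1 UMI over the 363 without, library 1 without the 26 cells of another lineage, with 95% exact conditional binomial intervals and dashed lines at 2-fold. Tnfrsf4, Ctla4 and Maf lie beyond the 2-fold line at −2.02, −1.67 and −1.49, Cd5 lies at −0.64, and Nr4a1 lies near 0 at −0.05.

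Members also differed in the interferon response. The 25 genes of that list summed to a median of 2824 CPM per member of library 1, with 5% of members under 897 CPM and 5% above 9585 CPM. Without the 26 cells of another lineage, the 349 members above the median share were compared with the 350 others over 3777 genes outside the list. In the high members 65 genes (1.72%) were at least 2-fold higher and none lower, against 134 of 4076 (3.29%) and none with all members. They included further interferon targets, among them Slfn5 with 107 CPM in high members and 21.4 CPM in the others (log2 2.32, 1.86 to 2.81), Gbp7 with a log2 ratio of 2.03 and Herc6 with 64.6 CPM in high members and 15.8 CPM in the others (log2 2.03). Of 17 activation and memory genes 7 were at least 2-fold higher in the high members (median log2 0.94 beside 0.06 over all genes), as were 5 of 6 regulatory T cell genes (median 1.51), and none of either list was lower. Among them were Tnfrsf4 with a log2 ratio of 2.13 (1.65 to 2.64) and S100a4 with 73.2 CPM in high members and 13.5 CPM in the others (log2 2.44, 1.86 to 3.06). Several genes of these lists rested on a minority of cells. Over all 725 members, Tnfrsf4 had a UMI in 88, Ctla4 in 113 and Ikzf2 in 50, and 582 had none of the regulatory T cell markers. Whether the higher levels extend beyond such cells was not tested. Klf2 had 1525 CPM in high members and 1760 CPM in the others (log2 −0.21, −0.27 to −0.14), and Igfbp4 had 192 CPM in high members and 238 CPM in the others (log2 −0.31, −0.50 to −0.12).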

How the data were processed

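Raw UMI counts of both libraries came as 1 matrix over 31053 genes, which the authors made with Cell Ranger on mm10, per the submitters' processing notes (software 3.1.0, per the file headers). The deposited counts carry no normalization. No source used here gives the strand or the rule for calling cells. Each barcode ends in a library number that no source ties to a group. Members, 18 function lists and 17 marker lists were chosen with earlier results of these data known. Counts were summed per class, scaled to CPM and compared as log2 ratios with exact conditional binomial intervals, among genes with at least 100 UMIs over both classes and not used by the rule. A gene passed at 2-fold, or, more strictly, also with an interval excluding 1.5-fold. Classes at 0 were given the floor of 3 counts. Named genes were list genes, the 10 highest and 10 lowest ratios with at least 50 CPM in a class, and the 20 most abundant and 20 most variable genes. Cells scoring in the top 5% with Scrublet (expected rate 0.06) were left out in an alternative. Other alternatives changed the rule's limits, UMI minimum, scaling, depth and cells. The scripts were tested on simulated data. Python 3.11.15, numpy 2.4.6, scipy 1.17.1, pandas 2.3.3 and scanpy 1.11.5 were used.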

Additional observations from a re-analysis of the deposited data

How the results depend on the processing

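The number of members in library 1 (725) fell to 312 with Cd4 of at least 2 UMIs, and the 17 of library 2 became 10 with that limit, 8 with Lef1, Tcf7 and Ccr7 of at least 3, 5 with the rule on thinned cells, 44 without the B cell, macrophage and cycling conditions, and 8 without cells of another lineage. Against CD8 cells, where 106 genes were higher in members and 123 lower, a minimum of 50 UMIs gave 182 and 200, one of 500 gave 28 and 36, none gave 864 and 653, cells at or below the median depth gave 26 and 42, and thinned cells gave 54 higher. Against CD4 cells without naive genes (439 and 782), a minimum of 500 gave 83 and 128, totals without ribosomal and mitochondrial genes and Gm42418 gave 853 and 339, shallower cells gave 228 and 337, the stricter interval gave 50 and 345, and the lower genes were 1495 at a minimum of 50, 5994 at none and 512 under median-of-ratios scaling. Against Foxp3-positive cells (153 and 298), minimums of 50 and 500 gave 354 and 576, and 16 and 40, none gave 596 and 3006, totals without those genes gave 236 and 177, deeper cells gave 95 and 195, the stricter interval gave 38 and 192, and the lower genes were 180 under median-of-ratios scaling and 170 in shallower cells. Under median-of-ratios scaling 54.9% of calls against CD4 cells without naive genes and 56.0% of those against Foxp3-positive cells were higher, where totals gave 36.0% and 33.9%. Cxcl10 against CD8 cells reversed to −0.49 in shallower cells and −0.60 without cells of another lineage, Bgn against CD8 cells to −1.22 with Lef1, Tcf7 and Ccr7 of at least 3, Bgn against Foxp3-positive cells to −3.48 in shallower cells and −0.42 without its top cell, and Dirc2 against Foxp3-positive cells to −0.032 in shallower cells. Genes higher with Ly6c1 fell to 1, where all members gave 16, and those higher with the interferon list to 65, where all members gave 134. Of the other gene ratios 721 kept their direction within their interval and 133 moved beyond it. No list median of at least 1 in either direction reversed, but sign changes of smaller medians were not counted as reversals. The survival list against CD4 cells without naive genes had a median of −0.18 by totals. It stood at 0.26 without ribosomal and mitochondrial genes and Gm42418 in the totals. Leaving out cells of another lineage, or the top cell, was chosen after seeing the data; the causes were not tested. No paired analysis was possible because each library number is 1 library of an unknown group. With 1 library each, the 17, 18 and 45 cells of the small classes limit what these ratios can show, and a low gene in them moves with single cells.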
